A study of Danio rerio with 9 samples.

Results

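Zebrafish embryos without functional runx1 were compared with wild-type (WT) embryos at 2.5 days post fertilisation (dpf), using single-cell RNA sequencing of sorted cells. The runx1-/- fish were homozygous for the del8 (hg96) allele, and both genotypes were of the EK strain and carried the tg(cd41:GFP) reporter. Both samples were the cd41:GFPlow fraction, so the sort gate set which cells entered each library. Each genotype had 1 library at this age and the number of embryos behind a library is not given in the sources used here. The members were all cell barcodes with at least 500 unique molecular identifiers (UMIs, counted mRNA molecules), at least 200 genes and at most 20% of UMIs in mitochondrial genes. All 1173 barcodes of the runx1-/- library and all 2200 barcodes of the WT library passed. These 3373 cells are part of 29994 cells in the whole series, and their 2 libraries are part of 9, the others being from 6, 10 and 16 dpf.

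Runx1 is a DNA-binding transcription factor that, with its partner Cbfb, is needed when haemogenic endothelium of the dorsal aorta turns into haematopoietic stem and progenitor cells (HSPCs), a step called the endothelial-to-haematopoietic transition. Primitive red cells and primitive macrophages of the embryo arise earlier from other mesoderm and do not depend on that step. The cd41 promoter (cd41 is itga2b, the platelet integrin alpha IIb) marks thrombocytes strongly and HSPCs weakly, which is why the GFPlow gate is used to collect HSPCs in zebrafish.

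With 1 library per genotype there is no replicate error, and every difference below is between these libraries. A summed level is given in CPM (UMI counts scaled to the total of the library or class). Each log2 ratio is runx1-/- over WT with a prior of 1 count, and each interval is an exact 95% interval that covers counting error only. A gene was called higher or lower when the ratio passed 2-fold in a comparison with at least 20 UMIs for that gene. Where a gene had 0 UMIs in one library, the fold is given as a lower bound computed against 3 counts in that library. In summed counts, fewer cells of a type and less RNA per cell cannot be told apart.

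The runx1-/- library held 12157646 UMIs with a median of 7757 UMIs and 1258 genes per cell, against 27927467 UMIs, 12290.5 UMIs and 1856 genes in WT. Percentages of cells with a UMI of a gene are therefore given after each cell was thinned to 2500 UMIs, a depth that every cell reached. Numbers of cells with a UMI of a gene, such as those by class below, are from unthinned cells, so this difference in depth enters them. The transcript of runx1 itself had 3 UMIs in runx1-/- and 1 UMI in WT, and a 3′ tag outside a small deletion does not check the genotype. The libraries shared 3 cell barcodes with each other and 0 with any later library. Globin transcripts took 15.8% of runx1-/- UMIs, against 0.460% in WT. RNA outside its own cells was visible in both libraries: in epidermis-like cells the globin gene hbae3 stood at 467 CPM in runx1-/- and 13.2 CPM in WT, and the neutrophil gene lyz stood at 1.70 CPM in runx1-/- and 39.3 CPM in WT. The GFPlow label did not mean that most runx1-/- cells were blood: 325 of 1173 runx1-/- cells (27.7%) and 1507 of 2200 WT cells (68.5%) lay in blood clusters. itga2b itself had 17 of the 12157646 UMIs in runx1-/- and 48 of the 27927467 UMIs in WT, raw counts that are not scaled for this difference in totals.

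Several blood clusters held far fewer runx1-/- cells. HSPC-like cells, a pair of clusters led by spi2, tcf15, gfi1aa and cebpa in one and by blf and drl in the other, were 4 of 1173 cells in runx1-/- (0.341%, interval 0.0930 to 0.871%) and 866 of 2200 cells in WT (39.4%, interval 37.3 to 41.4%). The name belongs to the clusters and not to each cell. Classed by their own markers (at least 3 of a list after thinning), 168 of these cells over both libraries were HSPC-like and 659 were unassigned. Cluster 0, with the red-cell membrane gene rhag, tal1 and myb among its leading genes, held 3 runx1-/- cells (0.256%) and 242 WT cells (11%). It stayed unnamed, and its best-scoring marker list was the erythroid one, ahead of HSPC. By their own markers, 99 of its cells over both libraries were erythroid-like, 72 HSPC-like, 72 unassigned and 2 epidermis-like. Cluster 12, led by runx3, tcf15 and the chemokine receptor gene ccr9a, held 0 runx1-/- cells, which allows a share of up to 0.314%, and 223 WT cells (10.1%). Neutrophil-like cells numbered 1 in runx1-/- (0.0853%) and 81 in WT (3.68%). The blood transcription factor genes were left out of the genes used for clustering, so their levels did not place these cells. With 1 library per genotype, a cluster held mostly by 1 library may be a property of that library and not a cell type.

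Other blood classes made up a larger share of the runx1-/- library. Erythroid-like cells were 154 (13.1%, interval 11.2 to 15.2%) in runx1-/- and 12 (0.545%, interval 0.282 to 0.951%) in WT. Macrophage-like cells were 73 (6.22%, interval 4.91 to 7.76%) in runx1-/- and 43 (1.95%, interval 1.42 to 2.62%) in WT. Cluster 14, an unnamed cluster led by tnni1b, paplnb, sele, the sphingosine phosphate transporter gene spns2 and the platelet glycoprotein gene gp1bb, held 90 runx1-/- cells (7.67%) and 40 WT cells (1.82%). Taken over blood cells alone, runx1-/- had 47.4% erythroid-like, 27.7% cluster 14, 22.5% macrophage-like and 1.23% HSPC-like cells. WT blood cells were 0.796% erythroid-like, 2.65% cluster 14, 2.85% macrophage-like and 57.5% HSPC-like. The rest of WT blood was 16.1% cluster 0, 14.8% cluster 12 and 5.37% neutrophil-like, against 0.923%, 0% and 0.308% in runx1-/-. The erythroid-like class leaves out cluster 0, which scored highest on the erythroid list. The 4 HSPC-like cells of runx1-/- were shallow, with a median of 6312 UMIs against 13778 UMIs in WT, and had 0 UMIs of spi2 and tcf15. The erythroid contrast depended on how finely cells were grouped: at a Leiden resolution of 2, 186 runx1-/- and 232 WT cells were erythroid-like, a log2 share ratio of 0.59 against 4.45 at resolution 1. Classed by each cell's own markers, 35 runx1-/- and 260 WT cells were HSPC-like, a log2 share ratio of -1.96 against -6.62 among clusters.

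**Figure D1:**
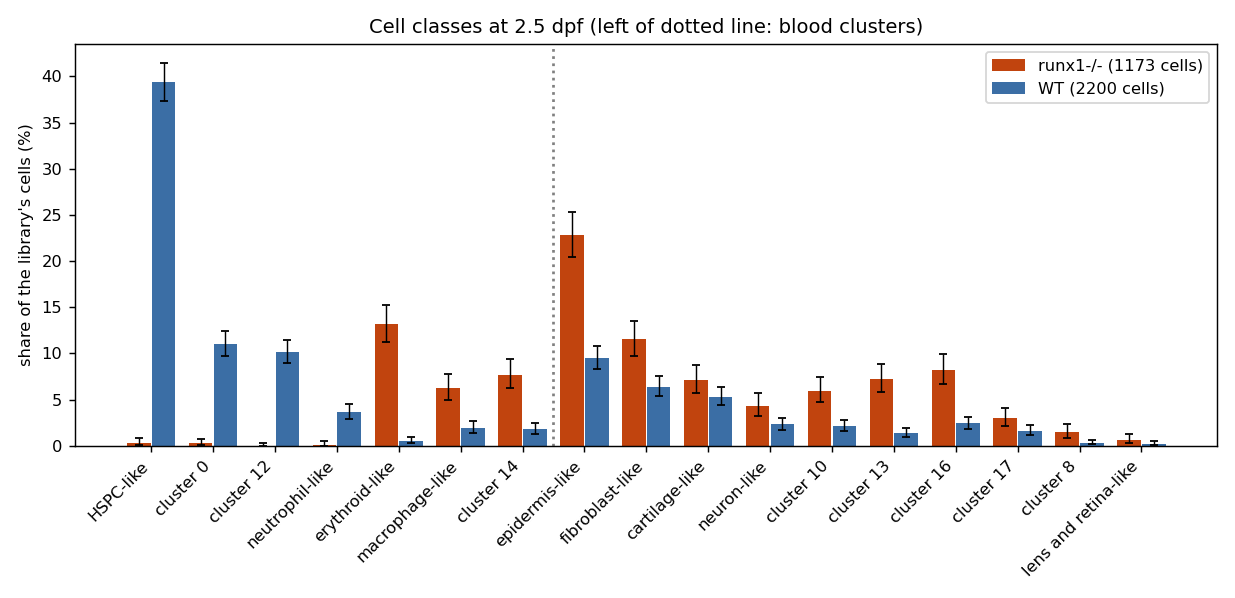
Share of cells (percent of each library, linear axis) in every cluster class at 2.5 dpf, runx1-/- left of WT, with exact 95% binomial intervals that cover counting error only. HSPC-like cells reached 39.4% in WT and 0.341% in runx1-/-, and erythroid-like cells 13.1% in runx1-/- and 0.545% in WT. The dotted line separates blood classes from the others.

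Cells were also counted by markers alone, without clusters. Cells with UMIs of at least 3 HSPC markers after thinning were 53 (4.52%) in runx1-/- and 291 (13.2%) in WT. Cells with at least 3 neutrophil markers were 3 (0.256%) in runx1-/- and 98 (4.45%) in WT, those with at least 3 erythroid markers 183 (15.6%) in runx1-/- and 154 (7%) in WT, and those with at least 3 macrophage markers 67 (5.71%) in runx1-/- and 42 (1.91%) in WT. The HSPC contrast was narrower here than among clusters, and without thinning they were 226 cells in runx1-/- and 1100 cells in WT. The erythroid direction was lost without thinning, with 222 cells (18.9%) in runx1-/- and 435 cells (19.8%) in WT. Unthinned neutrophil counts were 95 (8.10%) in runx1-/- and 346 (15.7%) in WT, and macrophage counts 75 (6.39%) in runx1-/- and 44 (2%) in WT.

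Over all cells, 13946 genes were compared, of which 44.1% were past 2-fold, 21.7% of them higher and 22.4% lower in runx1-/- (percentages of the genes compared). Each count of a gene list below stands against those shares. The lists were chosen with results of these data known. Among 39 blood transcription factor genes compared, 2 were higher and 19 lower, with a median log2 ratio of -0.83, against -0.09 for all genes. Among 27 listed genes of the endothelial-to-haematopoietic transition, 6 were higher and 7 lower (median 0.19), which is near the shares over all genes. Among 13 HSPC marker genes, 0 were higher and 7 lower (median -1.08).

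The largest gap among these regulators was in spi2, an ETS-family gene of the Spi group listed as si:dkey-257i7.5. It had 0 UMIs in runx1-/- and 4606 UMIs (165 CPM) in WT, at least 668-fold lower, and was seen in 0% of thinned runx1-/- cells and 22.2% of thinned WT cells. It was at 0 UMIs in every runx1-/- class, and with 1 library per genotype, a difference in genetic background between the fish and the runx1 genotype cannot be told apart. The helix-loop-helix gene tcf15 had 5.51 CPM in runx1-/- and 688 CPM in WT (log2 ratio -6.95, interval -7.33 to -6.62). In runx1-/-, only 67 UMIs of tcf15 were counted, 40 of them in 10 fibroblast-like cells and 18 in 7 cells of cluster 14, whereas 756 of 1117 tcf15-positive WT cells were HSPC-like. The repressor gene gfi1aa, whose mouse counterpart switches off the endothelial programme in haemogenic endothelium, had 9 UMIs (0.740 CPM) in runx1-/- and 697 UMIs (24.96 CPM) in WT (log2 ratio -4.98). Its paralogue gfi1ab had 0 UMIs in runx1-/- and 32 in WT.

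Genes that are required for or mark definitive HSPCs were also lower. myb, needed for definitive haematopoiesis, had 9.62 CPM in runx1-/- and 121 CPM in WT (log2 ratio -3.65, interval -3.93 to -3.39), and was detected in 1.96% of thinned runx1-/- cells and 19.2% of thinned WT cells. In epidermis-like cells, which should lack it, myb was detected in 0.746% of runx1-/- and 0.478% of WT cells after thinning. gata2b, a gene of the haemogenic endothelium, had 20 UMIs (1.65 CPM) in runx1-/- and 492 UMIs (17.6 CPM) in WT (log2 ratio -3.38). The related factor gene runx3 had 2.14 CPM in runx1-/- and 28.7 CPM in WT (-3.72), and cbfb, which encodes the Runx partner, had 13.8 CPM in runx1-/- and 39.8 CPM in WT (-1.52). The lymphoid factor gene ikzf1 stood at 3.04 CPM in runx1-/- and 31.4 CPM in WT (-3.34), and the myeloid factor gene cebpa at 17.4 CPM in runx1-/- and 117 CPM in WT (-2.74). The haematopoietic zinc-finger gene drl stood at 17.8 CPM in runx1-/- and 59.9 CPM in WT (-1.74), and blf, another blood zinc-finger gene, at 116 CPM in runx1-/- and 861 CPM in WT (-2.89).

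Of the 39 blood transcription factor genes, 18 stayed within 2-fold, among them tal1, lmo2, gata1a and spi1b, which are shared with primitive blood. tal1, which acts at the top of the blood and endothelial programme, had 76.3 CPM in runx1-/- and 112 CPM in WT (log2 ratio -0.55), and its partner lmo2 had 77.3 CPM in runx1-/- and 137 CPM in WT (-0.83). The cells that carried them were not of the same classes: of 272 lmo2-positive runx1-/- cells, 137 were erythroid-like and 63 in cluster 14, whereas of 983 lmo2-positive WT cells, 585 were HSPC-like and 232 in cluster 0. The erythroid master gene gata1a stood at 10.4 CPM in runx1-/- and 12.96 CPM in WT (-0.32), and spi1b, the main Pu.1 gene, at 35.7 CPM in runx1-/- and 36.0 CPM in WT (-0.01). The genes called higher were klf17, a factor of primitive red cells, and gata2a, an endothelial and neural Gata gene, klf17 with 96.5 CPM in runx1-/- and 16.7 CPM in WT (2.52) and gata2a with 4.85 CPM in runx1-/- and 2.04 CPM in WT (1.23). Both kept that call with TMM scaling (trimmed mean of M-values) and with totals without globins, under which 3 genes of the list were higher.

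**Figure D2:**
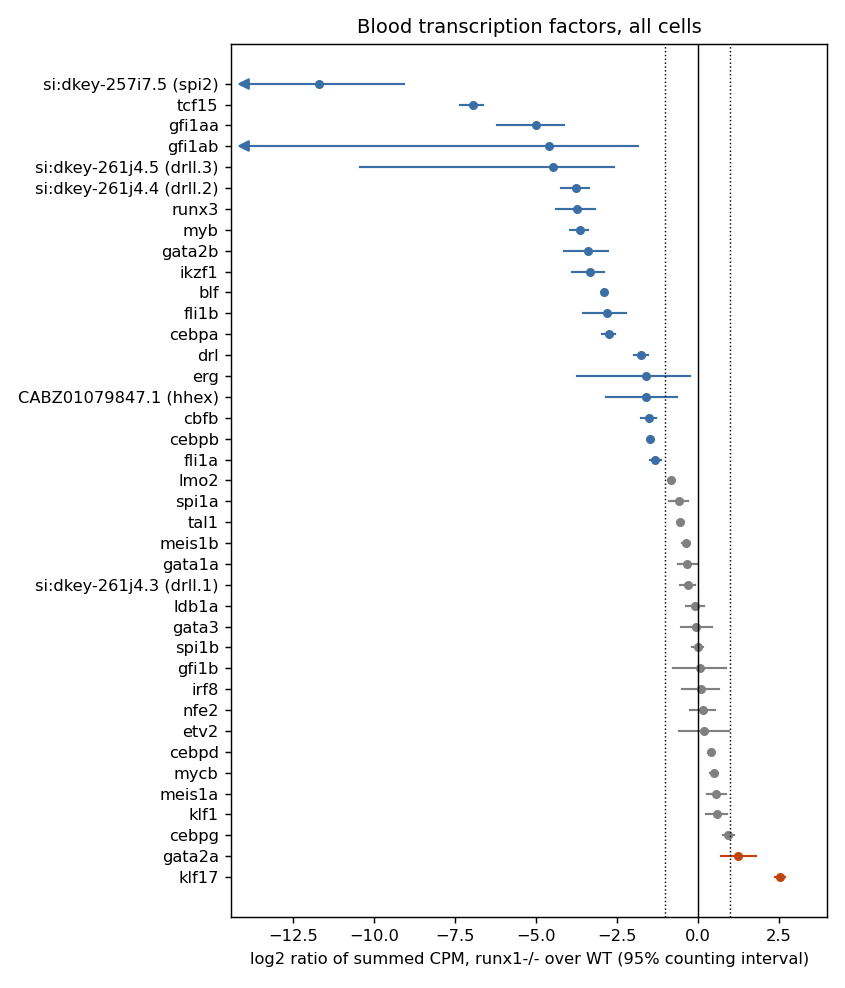
Log2 ratio of summed CPM, runx1-/- over WT, for each blood transcription factor gene with at least 20 UMIs at 2.5 dpf, with 95% counting intervals; arrows mark genes with 0 UMIs in runx1-/-. spi2 and tcf15 lie farthest to the lower side, tal1, lmo2, gata1a and spi1b lie within 2-fold, and klf17 and gata2a lie past 2-fold on the higher side.

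The myb transcripts left in runx1-/- had a particular place. Of its 117 UMIs, 82 were in 34 cells of cluster 14 and a further 14 cells with myb were erythroid-like, and of 20 gata2b UMIs, 18 were in 13 cells of cluster 14. In WT, 584 of 961 myb-positive cells were HSPC-like and 231 were in cluster 0. Within cluster 14 itself, myb was at 109 CPM in runx1-/- and 77.1 CPM in WT.

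Neutrophil and lymphoid genes were mostly lower. Of 12 neutrophil markers compared, 1 was higher and 9 lower (median log2 ratio -2.93). The lysozyme gene lyz had 56.4 CPM in runx1-/- and 2551 CPM in WT (log2 ratio -5.50), and 664 of its 686 UMIs in runx1-/- were in 1 neutrophil-like cell, whereas in WT 97.8% of 71233 UMIs were in 81 neutrophil-like cells. The neutrophil protease gene npsn stood at 6.58 CPM in runx1-/- and 361 CPM in WT (-5.77), the collagenase gene mmp13a at 4.61 CPM in runx1-/- and 126 CPM in WT (-4.76), and the myeloperoxidase gene mpx at 8.39 CPM in runx1-/- and 98.3 CPM in WT (-3.54). The residual mpx in runx1-/- was mostly not in neutrophils, since 70.6% of its UMIs lay in 26 erythroid-like cells. Of 5 lymphoid markers compared, 0 were higher and 4 lower (median -2.65). The thymus-homing receptor gene ccr9a had 26.6 CPM in runx1-/- and 168 CPM in WT (-2.65), and the cytokine receptor gene il7r had 0 UMIs in runx1-/- and 42 in WT.

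Red-cell genes were higher. All 11 globin genes compared were past 2-fold (median log2 ratio 4.99), 10 of 18 erythroid markers were higher and 1 lower (median 1.64), and 10 of 19 haem and iron genes were higher and 1 lower (median 1.14). The embryonic globin gene hbbe3 had 3664 CPM in runx1-/- and 11.1 CPM in WT (log2 ratio 8.36), with 98.5% of its runx1-/- UMIs in erythroid-like cells. hbae3 had 32983 CPM in runx1-/- and 923 CPM in WT (5.16). The globin gene hbae1.2 was also higher in summed level (4.42). It was nonetheless detected in fewer runx1-/- cells, 32.5% of thinned runx1-/- cells and 45.9% of thinned WT cells. Globin genes are near-identical copies, so counts may be split among them. alas2, which starts haem synthesis in red cells, had 212 CPM in runx1-/- and 6.19 CPM in WT (5.08). cahz, the red-cell carbonic anhydrase gene, had 579 CPM in runx1-/- and 21.4 CPM in WT (4.75), and slc4a1a, the band 3 anion exchanger gene, had 226 CPM in runx1-/- and 58.7 CPM in WT (1.95). Against this direction, the erythropoietin receptor gene epor was lower, with 3.13 CPM in runx1-/- and 12.1 CPM in WT (-1.94). Inside erythroid-like cells, globins took 62.9% of UMIs in runx1-/- and 60.4% in WT (154 and 12 cells). Outside them the runx1-/- library also held more globin RNA, 0.118% of UMIs against 0.00624% in WT epidermis-like cells, and its part in small globin differences of other classes was not tested.

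The lists of other cell types showed what else passed the gate. Of 20 epidermis markers compared, 19 were higher and 0 lower (median log2 ratio 1.55), of 17 neuron markers 16 higher and 0 lower (1.51), of 20 skeletal muscle markers 20 higher and 0 lower (4.28), and of 18 fibroblast markers 11 higher and 0 lower (1.06). The muscle list rests on very few cells: classed by their own markers, 6 runx1-/- and 4 WT cells were skeletal muscle-like, and 1 runx1-/- cell held 92.8% of the UMIs of the myosin gene myhz2 and 1 held 88.3% of those of the troponin gene tnni2a.4. Thinning moved the log2 ratio of myhz2 to 3.62, against 7.42 before. Of 15 cartilage markers, 1 was higher and 2 lower (-0.08), and of 11 lens and retina markers, 1 was higher and 9 lower. Of 13 macrophage markers, 9 were higher and 0 lower (1.85), with the perforin-family gene mpeg1.1 at 35.6 CPM in runx1-/- and 8.34 CPM in WT. Of 8 thrombocyte markers, 3 were higher and 1 lower (0.35), the lower gene being mpl, the thrombopoietin receptor gene, with 10 UMIs in runx1-/- and 243 UMIs in WT. Of 13 pan-leukocyte genes, 0 were higher and 9 lower (-1.38), with the actin regulator gene coro1a at 39.9 CPM in runx1-/- and 199 CPM in WT.

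Proliferation genes were lower as a block. Of 40 DNA replication genes, 0 were higher and 37 lower (median log2 ratio -1.45), with a summed level of 732 CPM in runx1-/- and 2010 CPM in WT. Of 38 mitosis genes, 0 were higher and 29 lower (median -1.19). With totals that left out globins, the counts of lower genes were 29 and 19, and still 0 were higher. Ribosomal protein genes took 30.6% of runx1-/- and 42.6% of WT UMIs, yet only 1 of 76 passed 2-fold (median -0.49), and of 85 oxidative phosphorylation genes 2 were higher and 17 lower (median -0.67).

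**Figure D3:**
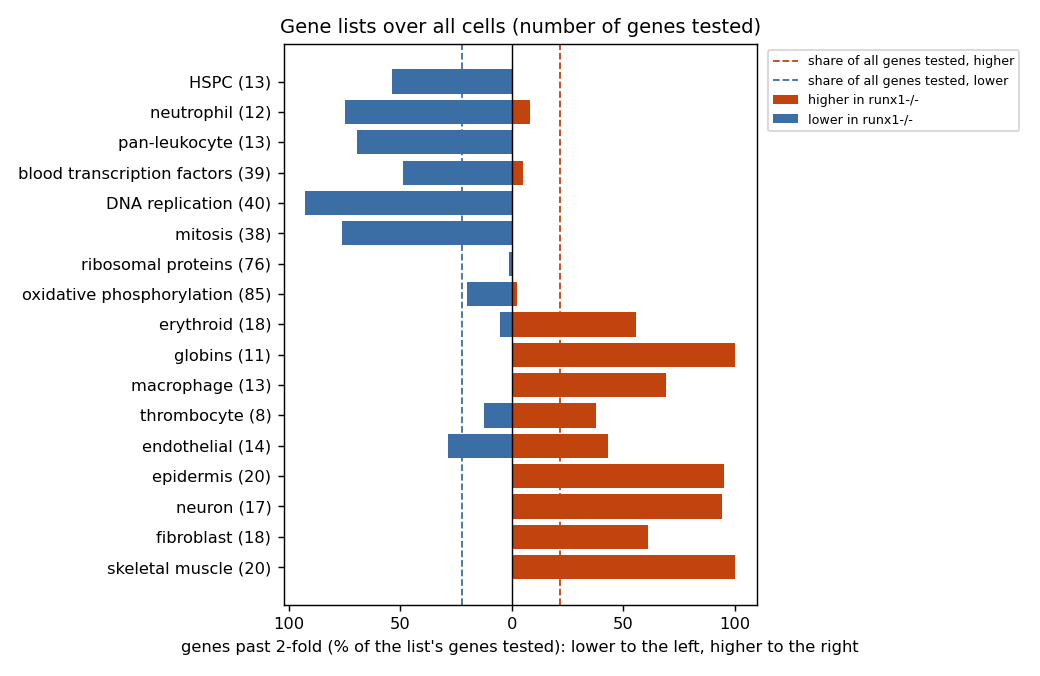
Percent of the compared genes of each list that were past 2-fold at 2.5 dpf, higher in runx1-/- to the right and lower to the left, with dashed lines at 21.7% and 22.4%, the shares over all 13946 genes. Globins, skeletal muscle and epidermis lists lie to the higher side, and DNA replication, mitosis and neutrophil lists lie to the lower side.

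The genes with the largest ratios by the naming rule were in part decided by single cells. The hatching enzyme gene he1a had 0 UMIs in runx1-/- and 5352 UMIs in WT, of which 98.9% were in 1 WT cell, and the hatching gland cathepsin gene ctslb had 0 UMIs in runx1-/- and 1779 UMIs in WT, 99.4% of them in 1 cell. On the other side, the cardiac myosin gene myl7 had 119 UMIs in runx1-/- and 0 in WT, 98.3% of them in 1 cell, and the neuropeptide gene galn had 381 UMIs in runx1-/- and 2 in WT, 97.1% of them in 1 cell. Genes spread over many cells were ranked next, with no cell holding over 10% of a gene's UMIs. Besides spi2, tcf15, lyz and npsn, the genes lowest in runx1-/- were si:ch211-121a2.2 (0 UMIs in runx1-/- and 1549 in WT, at least 225-fold lower), the integrin gene itgae.2 (0 UMIs in runx1-/- and 476 in WT, at least 69.1-fold lower) and the lysophosphatidic acid receptor gene lpar5a (2.06 CPM in runx1-/- and 115 CPM in WT, log2 ratio -5.77). si:ch211-121a2.2 was not a blood gene alone: epidermis-like cells had 0 CPM in runx1-/- and 38.1 CPM in WT. Both this gene and itgae.2 were at 0 UMIs in every runx1-/- class, and, as for spi2, genetic background and genotype cannot be told apart. The highest were globins, alas2, cahz and the water channel gene aqp1a.1 (151 CPM in runx1-/- and 5.84 CPM in WT, 4.68).

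Cluster 14 allowed the genotypes to be compared inside a blood cluster present in both libraries. Its median depth was 7331 UMIs per cell in runx1-/- and 7764 UMIs in WT. Its leading genes were not shared evenly by the genotypes. Over all cells, paplnb had 150 UMIs in runx1-/- and 3 in WT, while gp1bb was lower in the runx1-/- cells of the cluster. The cluster was a mixture. Classed by their own markers, its cells over both libraries were 45 HSPC-like, 22 erythroid-like, 16 epidermis-like, 10 thrombocyte-like, 4 endothelial-like and 33 unassigned. In the whole libraries, 1 runx1-/- cell and 11 WT cells were thrombocyte-like by their own markers. The part of this mixture in the calls below was not tested. Of 2727 genes compared, 35.4% were past 2-fold, 12.4% higher and 23.0% lower, with a median log2 ratio of -0.38. TMM scaling moved the median log2 ratio in this cluster up by 0.44, and the calls below were kept under it unless stated. Genes used in the clustering helped to place the cells, which is said for the marker genes below and for some others.

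The HSPC markers of cluster 14 did not separate the genotypes as they did over all cells: of 10 compared, 2 were higher and 2 lower (median log2 ratio 0.15), summing to 1171 CPM in runx1-/- and 1211 CPM in WT. myb had 109 CPM in runx1-/-, in 34 of 90 cells, and 77.1 CPM in WT, in 12 of 40 cells (log2 ratio 0.48, interval -0.14 to 1.17). lmo2 had 339 CPM in runx1-/- and 251 CPM in WT (0.43), and tal1 had 256 CPM in runx1-/- and 259 CPM in WT (-0.02). gata2b had 18 UMIs in 13 cells in runx1-/- and 2 UMIs in 2 cells in WT (1.81, interval 0.05 to 5.27). meis1b, a homeobox gene of stem cells, was lower, with 107 CPM in runx1-/- and 251 CPM in WT (-1.21), and it was within 2-fold under TMM scaling. None of these genes was used in the clustering.

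Thrombocyte genes were lower in cluster 14. Of 6 compared, 0 were higher and 5 lower (median log2 ratio -1.60), with a summed level of 359 CPM in runx1-/- and 1134 CPM in WT. mpl had 11.9 CPM in runx1-/-, in 8 cells, and 90.9 CPM in WT, in 21 cells (-2.76, interval -4.18 to -1.84). itga2b, the gene behind the sort reporter, had 18.5 CPM in runx1-/-, in 10 cells, and 88.1 CPM in WT, in 17 cells (-2.14). gp1bb, of the von Willebrand receptor, had 79.5 CPM in runx1-/- and 242 CPM in WT (-1.59), and the matrix gene thbs1b had 201 CPM in runx1-/- and 617 CPM in WT (-1.61). The factor gene nfe2 did not share the direction, with 26.5 CPM in runx1-/- and 24.8 CPM in WT. Of these genes, itga2b, gp1bb and thbs1b were used in the clustering.

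Endothelial and red-cell genes were higher there. Of 4 endothelial markers compared, 3 were higher: ecscr, a surface regulator of endothelial cells, had 101 CPM in 39 cells of runx1-/- and 0 CPM in WT (at least 12.2-fold higher), and the tight junction gene cldn5b had 143 CPM in 24 cells of runx1-/- and 13.8 CPM in 2 cells of WT (3.22). The third, egfl7, had 26 UMIs in 7 cells of runx1-/-, 18 of them in 1 cell, and 0 in WT, while fli1a was within 2-fold at 241 CPM in runx1-/- and 284 CPM in WT. These 3 higher endothelial genes, and alas2 below, were used in the clustering, and klf17 was not. Of 13 erythroid markers, 8 were higher and 1 lower (9 and 0 under TMM scaling). klf17 had 286 CPM in 22 cells of runx1-/- and 0 CPM in WT (at least 34.6-fold higher), and alas2 had 75.5 CPM in 14 cells of runx1-/- and 0 CPM in WT (at least 9.14-fold higher), while gata1a was lower, at 29.1 CPM in runx1-/- and 77.1 CPM in WT (-1.35), within 2-fold under TMM scaling. The endothelial and red-cell signals lay mostly in different cells of runx1-/-: 17 cells carried both myb and ecscr, 11 carried both myb and klf17, and 2 carried both ecscr and klf17. Globins took over 5% of UMIs in 11 of 90 runx1-/- cells and in 0 of 40 WT cells, and the part of free red-cell RNA or mixed droplets in the red-cell genes was not tested. In epidermis-like cells klf17 stood at 7.08 CPM in runx1-/- and 7.20 CPM in WT, and the epidermis list was itself higher in cluster 14, with a summed 1189 CPM in runx1-/- and 295 CPM in WT.

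Most DNA replication and mitosis genes of cluster 14 were lower. Of 25 DNA replication genes, 0 were higher and 20 lower (median log2 ratio -1.52), 16 lower under TMM scaling. The nucleotide reductase gene rrm2 had 90.04 CPM in runx1-/- and 647 CPM in WT (-2.82), and the sliding clamp gene pcna had 217 CPM in runx1-/- and 625 CPM in WT (-1.52). Of 21 mitosis genes, 1 was higher and 13 lower (median -1.17), 8 lower under TMM scaling. Among single genes, the chemokine receptor gene cxcr4b had 7.95 CPM in 6 cells of runx1-/- and 204 CPM in 16 cells of WT (-4.40), and the vascular peptide gene apln had 9.27 CPM in runx1-/- and 201 CPM in WT (-4.20). blf fell to 245 CPM in runx1-/-, against 2307 CPM in WT (-3.23). The small heat shock gene hspb9 went the other way, with 825 CPM in 37 cells of runx1-/- and 2 UMIs in 2 cells of WT (6.82, interval 5.37 to 10.28), whereas the inducible chaperone gene hsp70.2 had 118 CPM in runx1-/- and 931 CPM in WT (-2.96). hspb9 was used in the clustering and was among the leading genes of cluster 14, and hsp70.2 was not used.

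**Figure D4:**
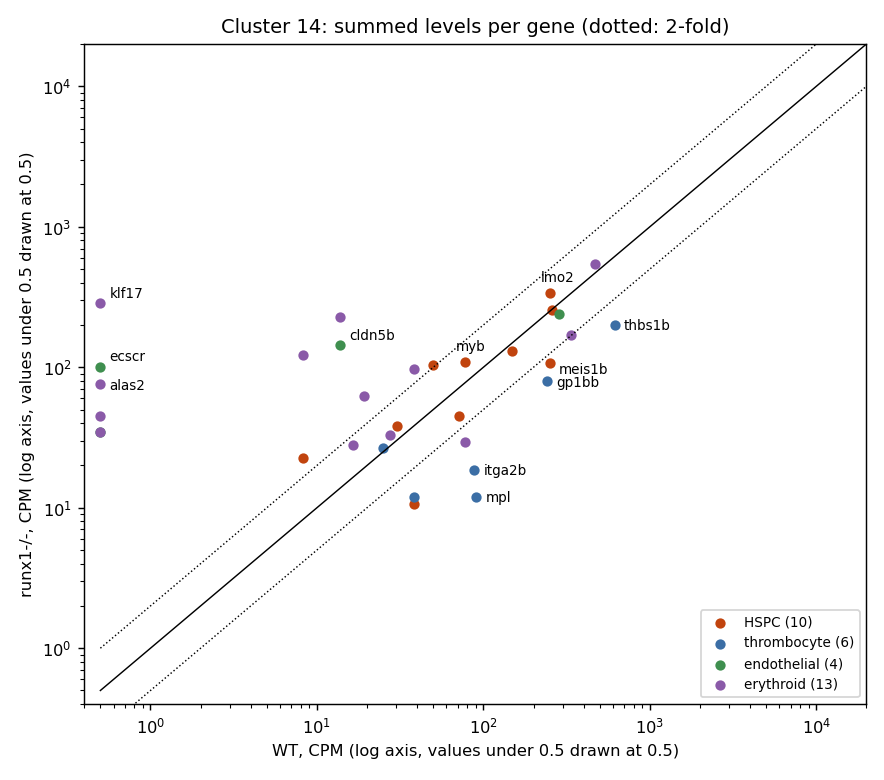
Summed CPM of genes in cluster 14 at 2.5 dpf, runx1-/- on the vertical and WT on the horizontal axis, both logarithmic, with values under 0.5 CPM drawn at 0.5 and dotted lines at 2-fold. HSPC genes such as myb, lmo2 and tal1 lie near the diagonal. The thrombocyte genes mpl, itga2b and gp1bb lie below it, and klf17 and ecscr lie at 0 CPM in WT.

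Macrophage-like cells were named from the macrophage markers, so expression of these genes in the class was set by the naming. Their depth was similar, with a median of 11941 UMIs in 73 runx1-/- cells and 12665 UMIs in 43 WT cells. Of 4234 genes compared, 22.9% were past 2-fold, 8.05% higher and 14.8% lower (median log2 ratio -0.22), and TMM scaling moved the median up by 0.23. Of 13 macrophage markers, 2 were higher and 1 lower (3 and 0 under TMM scaling). mpeg1.1 had 472 CPM in runx1-/- and 354 CPM in WT (0.41), csf1ra, the receptor gene for macrophage growth factor, had 86.1 CPM in runx1-/- and 51.0 CPM in WT (0.74), the complement gene c1qb had 123 CPM in runx1-/- and 55.8 CPM in WT (1.12), and mfap4 had 2390 CPM in runx1-/- and 4977 CPM in WT (-1.06, within 2-fold under TMM scaling). spi1b, which drives the macrophage programme, had 471 CPM in runx1-/- and 282 CPM in WT (0.74).

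Their inflammatory genes were lower. Of 11 compared, 0 were higher and 8 lower (median log2 ratio -2.38), summing to 1678 CPM in runx1-/- and 6380 CPM in WT. The cytokine gene il1b had 190 CPM in runx1-/-, in 35 of 73 cells, and 1520 CPM in WT, in 42 of 43 cells (-2.99, interval -3.24 to -2.76). tnfb, a tumour necrosis factor gene, had 82.7 CPM in runx1-/-, in 25 cells, and 1135 CPM in WT, in 40 cells (-3.76, interval -4.14 to -3.43), and its paralogue tnfa had 5.59 CPM in runx1-/- and 86.1 CPM in WT (-3.66). The NF-kappaB inhibitor genes nfkbiab and nfkbiaa, which NF-kappaB itself induces, stood at 600 and 362 CPM in runx1-/-, against 1890 and 1101 CPM in WT (-1.65 and -1.60). The NF-kappaB subunit genes relb and nfkb2 were within 2-fold, at 171 and 87.2 CPM in runx1-/- and 135 and 52.6 CPM in WT.

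Immediate early genes, which cell dissociation and stress induce within minutes, moved alongside. Of 23 compared in macrophage-like cells, 2 were higher and 15 lower (median log2 ratio -1.66). fosab had 60.4 CPM in runx1-/- and 1511 CPM in WT (-4.62), egr1 had 7.82 CPM in runx1-/- and 153 CPM in WT (-4.08), and jun had 101 CPM in runx1-/- and 859 CPM in WT (-3.08). Over all cells the same list ran the other way, with 12 of 32 higher and 0 lower (median 0.77). That sum mixes classes, and the fall was not confined to macrophage-like cells. Counting them too, fosab was lower in 5 of 10 classes compared, jun in 3 of 10 and egr1 in 2 of 7, with 0 higher for each. In cartilage-like cells fosab had 526 CPM in runx1-/- and 2433 CPM in WT (-2.21). Whether handling of the libraries has a part in the macrophage difference was not tested. Of 26 mitosis genes, 0 were higher and 23 lower in macrophage-like cells (summed 496 CPM in runx1-/- and 2031 CPM in WT), and of 5 interferon response genes, 0 were past 2-fold. Genes of other cell types also differed in this class: 8 of 9 epidermis markers were higher and 0 lower in runx1-/-, while lyz had 2 UMIs in runx1-/- and 336 UMIs in WT, and their part in the class's calls was not tested. By the naming rule, the GTPase gene arl5c was among the lowest, with 34 UMIs in 17 cells of runx1-/- and 574 UMIs in 41 cells of WT (-4.54), and the xenobiotic oxidase gene cyp1a among the highest, with 343 CPM in 41 cells of runx1-/- and 7.97 CPM in 2 cells of WT (5.21). Among the genes cited for macrophage-like cells, tnfb, fosab, jun and cyp1a were used in the clustering, and egr1 and arl5c were not.

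**Figure D5:**
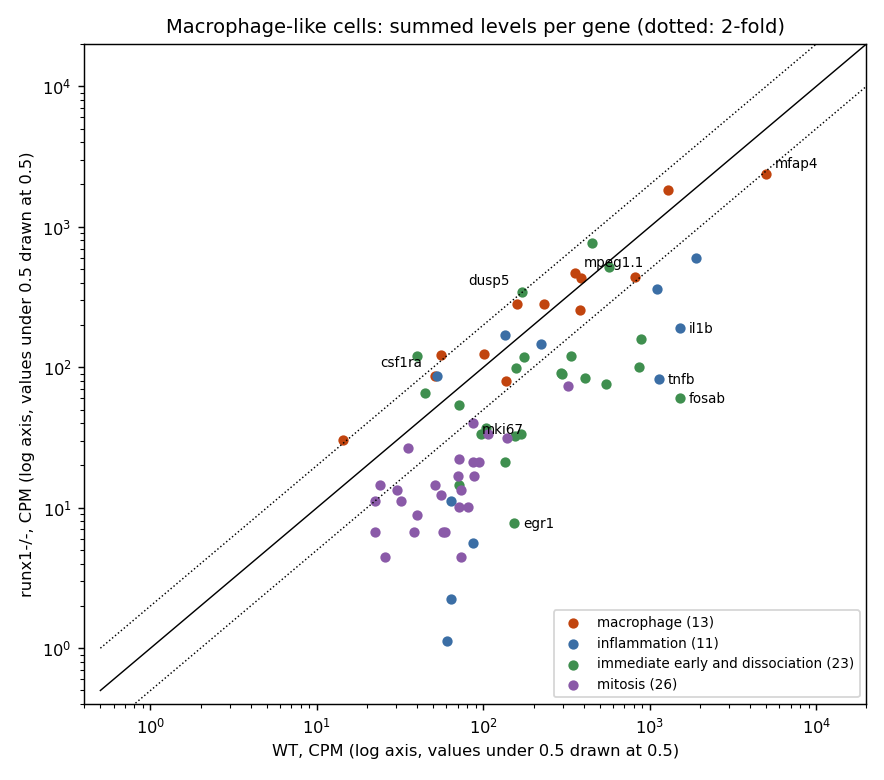
Summed CPM of genes in macrophage-like cells at 2.5 dpf, runx1-/- on the vertical and WT on the horizontal axis, both logarithmic, with values under 0.5 CPM drawn at 0.5 and dotted lines at 2-fold. Identity genes such as mpeg1.1 and csf1ra lie near the diagonal, and il1b, tnfb, fosab and jun lie below it.

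Summed over all cells outside the blood, fewer genes passed 2-fold than summed over blood cells. In non-blood cells, 14.4% of 11675 genes were past 2-fold (6.67% higher and 7.7% lower), against 57.7% of 10508 genes in blood cells (11.4% higher and 46.2% lower). The blood sums hold different mixes of blood classes in the genotypes, and the part of that mix was not tested. Within single classes the share was 35.4% in cluster 14, 22.9% in macrophage-like cells and 22.5% in the non-blood cluster 10. Among the 848 runx1-/- and 693 WT non-blood cells, epidermis-like cells were 31.6% in runx1-/- and 30.2% in WT, fibroblast-like cells 15.9% in runx1-/- and 20.3% in WT, cartilage-like cells 9.91% in runx1-/- and 16.9% in WT, and neuron-like cells 6.01% in runx1-/- and 7.36% in WT. Past 2-fold were 13% of 7639 genes in epidermis-like cells (6.68% higher and 6.34% lower), 16.1% of 3995 in fibroblast-like cells (4.58% higher and 11.5% lower), 19.3% of 2710 in cartilage-like cells (3.69% higher and 15.6% lower) and 15% of 2206 in neuron-like cells (5.26% higher and 9.7% lower).

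Cartilage genes were lower in cartilage-like cells. Of 15 compared, 0 were higher and 10 lower (median log2 ratio -1.14), 5 of them lower under TMM scaling. The matrilin gene matn1 had 696 CPM in runx1-/- and 1693 CPM in WT (-1.28), and ucmab, an upper-zone cartilage matrix gene, had 145 CPM in runx1-/- and 574 CPM in WT (-1.97), while col2a1a, the main cartilage collagen gene, had 2220 CPM in runx1-/- and 4427 CPM in WT (-0.995, just inside 2-fold). Among the lower genes, col9a1b and matn3a were each seen in 0 runx1-/- cells and 2 WT cells. The class was named from this marker list, and col9a1b and matn3a were used in the clustering. The part of this in the calls was not tested. In fibroblast-like cells, 0 of 31 mitosis genes were higher and 25 lower (median -1.23), 16 lower under TMM scaling, while 0 of 18 fibroblast markers were past 2-fold either way. In neuron-like cells, 1 of 17 neuron markers was higher and 1 lower.

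Some genes were higher or lower in most classes. In the unnamed clusters the shares past 2-fold were 22.5% in cluster 10 (10% higher and 12.5% lower), 15.3% in cluster 13 (9.05% and 6.25%), 12.9% in cluster 16 (4.07% and 8.86%) and 13.5% in cluster 17 (5.06% and 8.41%). Of 1427 genes compared in all 4 main non-blood classes, 5 were higher in every one (dusp5, hbbe3, si:ch211-114n24.6, stc1l and ythdf2) and 1 was lower in every one (sesn1, a stress-induced sestrin gene). Outside those classes, stc1l was higher in clusters 10, 14, 16 and 17, but had log2 ratios of -3.98 in macrophage-like cells and -0.09 in cluster 13. dusp5 had 0.09 in cluster 17 and ythdf2 -0.06 in cluster 16. hbbe3 is a globin gene, and the part of free red-cell RNA in its ratios was not tested. stc1l was the first leading gene of cluster 13, which held 7.25% of runx1-/- cells and 1.36% of WT cells. The part of free RNA from those cells in the stc1l ratios of other classes was not tested either. sesn1 had log2 ratios of -2.21 in cartilage-like, -1.52 in epidermis-like, -1.56 in fibroblast-like and -1.60 in neuron-like cells, and -2.83 in cluster 14. si:ch211-114n24.6 was higher in all 10 classes and clusters compared, with log2 ratios between 2.46 and 4.21. Beyond macrophage-like cells, cyp1a was higher in 6 of the 8 other classes in which it was compared, with 400 CPM in runx1-/- and 64.0 CPM in WT in cartilage-like cells. The Notch target gene her6 was lower in macrophage-like cells (1 UMI in runx1-/- and 65 UMIs in WT, log2 ratio -5.43, interval -11.86 to -4.01) and in 5 of the 8 other classes in which it was compared. Of the genes in this paragraph, hbbe3, stc1l, cyp1a and her6 were used in the clustering, and si:ch211-114n24.6 was not.

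Later libraries of the series placed these values in time, each again with 1 library per side. The 16 dpf runx1-/- libraries, from fish labelled as without blood and as recovered, share their WT library. The log2 ratio of tcf15 stayed negative, at -3.68 at 6 dpf, -5.51 at 10 dpf, and -3.37 and -4.65 at 16 dpf (bloodless and recovered). spi2 had log2 ratios of -6.09 at 6 dpf, -1.54 at 10 dpf, and -2.99 and -3.52 at 16 dpf. myb was nearer to WT, at -0.35 at 6 dpf, -1.15 at 10 dpf, and -1.31 and -0.44 at 16 dpf. gata2b was on the other side at every later age, at 1.65, 2.46, 1.52 and 0.85. lyz had -1.18 at 6 dpf, 0.49 at 10 dpf, and -3.97 and -2.32 at 16 dpf, and hbae3 had 0.28 at 6 dpf, 6.68 at 10 dpf, and 11.72 and 10.94 at 16 dpf. Of the genes lower at 2.5 dpf, 8.58% were also lower at 6 dpf, against 3.92% of all genes compared at both ages, and at 10 dpf 7.13% against 7.40%. Of the genes higher at 2.5 dpf, 84.9% were also higher at 6 dpf, against 47.4%, and at 10 dpf 33.9% against 16.9%. At 16 dpf, genes lower at 2.5 dpf were also lower for 6.30% in bloodless fish, against 4.12% of all genes compared, and for 11.6% in recovered fish, against 13.5%. Genes higher at 2.5 dpf were also higher for 60.4% in bloodless fish, against 39.9%, and for 13.6% in recovered fish, against 11.2%. In recovered fish 18.3% of them were lower, against 13.5% of all genes compared at both ages. Over all genes compared at each later age, 48.7% were higher and 4.92% lower at 6 dpf, 19.6% and 8.4% at 10 dpf, 45.3% and 4.71% in bloodless fish at 16 dpf, and 10.9% and 17.7% in recovered fish at 16 dpf. The background for the overlaps is not these shares but those given above, over genes compared at both ages.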

How the data were processed

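Cells of the cd41:GFPlow gate were profiled with 10x Chromium 3′ chemistry. The deposited matrices hold raw UMI counts per gene and cell, made with Cell Ranger 2.0.2 and GRCz10 per the submitters' processing notes. The members, gene lists and tests were chosen with earlier results of these data known. Counts were summed per library or class and compared as CPM with a prior of 1 count, for genes with at least 20 UMIs, without p-values, since each genotype had 1 library (12157646 UMIs in runx1-/- and 27927467 in WT). Intervals are exact Clopper-Pearson or conditional binomial (95%). Percentages of cells with a UMI and counts by markers used cells thinned to 2500 UMIs, unless called unthinned. Numbers of cells with a UMI of a named gene used unthinned cells. Gene IDs were matched to newer symbols for 23616 of 26586 genes.

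Cells were clustered in scanpy 1.11.5 (2000 variable genes less the listed blood transcription factor genes, 30 components, 15 neighbours, Leiden resolution 1). Clusters were named from marker lists, with limits set after the cluster tables were seen; cluster 17, led by pituitary genes, stayed unnamed. Scrublet called 12 runx1-/- and 5 WT doublets, which were kept in; removing the 11 and 39 highest scores was an alternative. Genes were named by the largest ratio bound among genes with at least 50 UMIs, 12 each way over all cells and 6 within classes. The limit of 10% of UMIs in 1 cell, classes of at least 25 cells in each library and class totals without globins were added after seeing the data. Other alternatives were edgeR 4.0.16 TMM scaling, other filters, priors, resolutions and mitochondrial limits. The ratios and their intervals were tested on simulated counts that varied by counting error only, which the intervals assume. Variation between cells or libraries was not part of that test.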

Additional observations from a re-analysis of the deposited data

Results flagged for a closer look

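Of 68 genes examined, 25 were lower in runx1-/- at 2.5 dpf and measured in all 4 later contrasts, and 6 of these (24%) had a log2 ratio above 0, interval included, in all 4. The same held for 817 of all 2851 such genes (28.7%), so the share is near the background, and the difference between ages was not tested. Each of the 6 was within 2-fold in at least 1 later contrast. At 2.5 dpf the log2 ratios were -3.38 for gata2b, -3.76 for si:dkey-261j4.4 (drll.2, a blood zinc-finger gene), -1.88 for zfpm1 (a Gata cofactor gene), -1.31 for fli1a (an endothelial and blood ETS gene), -1.79 for si:dkey-261h17.1 (cd34) and -1.59 for CABZ01079847.1 (hhex). At 6 dpf, 10 dpf, 16 dpf bloodless and 16 dpf recovered they were 1.65, 2.46, 1.52 and 0.85 for gata2b. They were 0.32, 0.46, 2.38 and 2.92 for si:dkey-261j4.4, 1.39, 0.70, 0.68 and 0.62 for zfpm1, and 2.48, 1.52, 1.37 and 0.69 for fli1a. They were 2.91, 1.57, 1.06 and 0.79 for si:dkey-261h17.1 and 2.25, 0.70, 2.17 and 1.39 for CABZ01079847.1. Each age rests on 1 library per genotype, and both 16 dpf contrasts use the same WT library.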

How the results depend on the processing

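No paired analysis was possible because each genotype had 1 library and the labels give no replicate numbers, so leaving out a replicate could not be done either. No named gene or class share ratio changed sign under the alternatives run. The 24 named genes gave 192 alternative values, of which 0 reversed and 26 left their counting interval. The share of cells with at least 3 erythroid markers did change direction without thinning. It was 15.6% in runx1-/- and 7% in WT with thinning, and 18.9% in runx1-/- and 19.8% in WT without. The balance of higher against lower genes did turn with the scaling and with no filter. The count of genes past 2-fold over all cells (6150) was 3854 with a filter of 100 UMIs, 10259 with no filter and 3575 in thinned cells. Of these 6150, 3022 were higher in runx1-/- and 3128 lower (49.1% higher). With TMM scaling 3229 were higher and 2861 lower, with no filter 5912 and 4347, with totals without globins 3759 were higher and 2320 lower (61.8% higher), and with the filter of 100 UMIs 38.3% were higher. Scaling to totals without globins moved the median log2 ratio of all genes by 0.24 and TMM scaling by 0.07.

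Within classes the count past 2-fold with a filter of 100 UMIs, and then with no filter, was 100 and 3913 in cartilage-like, 199 and 4741 in epidermis-like, 90 and 4447 in fibroblast-like, 37 and 4289 in neuron-like, 181 and 4425 in macrophage-like cells, 125 and 5142 in cluster 10, 49 and 4330 in cluster 13, 195 and 4922 in cluster 14, 38 and 4178 in cluster 16, and 53 and 4536 in cluster 17. TMM scaling gave 478 genes higher and 409 lower in macrophage-like cells (341 and 628 before), 496 and 291 in cluster 14 (338 and 628), 178 and 272 in cartilage-like (100 and 424), 304 and 271 in fibroblast-like (183 and 461), 642 and 333 in epidermis-like (510 and 484), 152 and 148 in neuron-like cells (116 and 214), 392 and 262 in cluster 10 (315 and 393), and 182 and 138 in cluster 16 (119 and 259).

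The log2 ratio of the share of HSPC-like cells (-6.62) was -1.96 when each cell was classed by its own markers (35 runx1-/- and 260 WT cells). That of erythroid-like cells (4.45) was 0.59 at Leiden resolution 2 (186 and 232 cells), 3.11 with a mitochondrial limit of 10% (244 and 52 cells) and 1.46 by each cell's own markers (176 and 119 cells), and that of epidermis-like cells (1.26) was 0.77 with the mitochondrial limit of 10%. The cause was not tested. For cells counted by markers, the erythroid ratio (1.15) was 0.39 with at least 2 and 1.89 with at least 4 markers, the neutrophil ratio (-3.84) was -0.49 with at least 2 and the epidermis ratio (1.80) was 1.32 with at least 2. The share of cells with hbae3 gave 2.40 in unthinned cells against 3.93 in thinned cells. Depth limits the classes with few cells most, where 3 counts correspond to 3.97 CPM in runx1-/- and 8.26 CPM in WT in cluster 14.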
